A study of Mus musculus with 90 samples.

Results

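Cytokinesis is the division of the cell body that follows mitosis. The 10 genes Ect2, Arhgef2, Racgap1, Kif23, Anln, Cit, Rhoa, Prc1, Aurkb and Incenp are described here cell by cell in cultured mouse haematopoietic cells that were picked as megakaryocyte-like or not. The members were chosen by name for their known part in cytokinesis, with earlier results of these data known. All 10 were found among the 35869 genes of the table. Each is set beside Top2a and Mki67 of the same cell, which are DNA topoisomerase II alpha and the Ki-67 antigen, both common markers of cycling cells.

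Megakaryocytes become polyploid by endomitosis, in which a cell enters mitosis, separates its chromosomes and then fails to complete the cleavage furrow or the final cut. In an ordinary division the spindle midzone, built by Prc1 and by centralspindlin (Kif23 with Racgap1), recruits the exchange factor Ect2. Ect2 switches on the small GTPase RhoA, which drives the actin and myosin ring, while the chromosomal passenger complex with its kinase Aurora B (Aurkb) and scaffold Incenp controls the midzone and the timing of the cut. Lower Ect2 and lower Arhgef2 (also called GEF-H1) are known steps on the way to polyploid megakaryocytes.

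Single cells came from bone marrow stem cells sorted for CD41, a surface integrin of megakaryocytes and of some stem cells, and cultured for 2 days. KO cells came from mice with the genotype MxCre1+/-,RUNX1f/f and WT cells from mice with MxCre1-/-,RUNX1f/f, so both carried the floxed Runx1 alleles and only KO mice carried the Cre. All mice had received 4 injections of poly(I:C), which switches on the interferon-responsive Mx1 promoter that drives Cre, 4 weeks earlier. After culture, cells that looked like megakaryocytes (MK) and cells that did not (NMK) were picked and each was made into a SMART-Seq library. The table without the libraries that the authors set aside as outliers held 6 MK and 9 NMK cells of WT mice and 5 MK and 13 NMK cells of KO mice. WT and KO name the labelled genotype throughout. The labels name no animal or culture, so cells of a group count as 1 sample: differences between groups are given beside the spread between cells, with no test.

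Values are TPM, a transcript level scaled for gene length and library total, and the depth behind them is unknown. Libraries listed 14089 to 15252 genes above 0 in WT MK, 11896 to 14487 in KO MK, 5475 to 11715 in WT NMK and 3011 to 10987 in KO NMK cells. KO NMK B1-1b and B1-2a had housekeeping scores of 5.13 and 1.95 (mean log2(TPM + 1) of 14 genes), under the limit of 6, and in B1-1b mitochondrial genes made up 91.6% of the TPM. The 5 WT MK libraries without a B1 prefix in their title correlated with each other at r = 0.972 to 0.981 across genes, against 0.689 to 0.850 among WT NMK libraries, and whether they are 5 independent cells was not tested. The megakaryocyte score (12 marker genes, mean log2(TPM + 1)) was 5.20 to 6.58 in WT MK and 0.86 to 2.09 in WT NMK cells. In KO MK cells it was 8.91, 7.63 and 7.92 in 1B, B1-3 and 1A, but 1.25 in B1-4 and 2.55 in 2, so the last pair did not match the label by these markers. Markers of other lineages moved with the groups too. The mean stem cell score was 1.55 in WT MK, 4.02 in WT NMK, 3.02 in KO MK and 4.14 in KO NMK cells. In the same order the granulocyte-monocyte score was 1.41, 0.58, 0.88 and 0.53, and the erythroid score 2.12, 1.99, 2.74 and 1.96. The summed granulocyte-monocyte markers had medians of 61.6, 0.8, 5.6 and 5.4 TPM. In WT MK cells only 2 of these 6 markers averaged 1 TPM or more. KO MK cells 1B, B1-3 and 1A had stem cell scores of 1.57, 1.49 and 1.52, but B1-4 and 2 had 5.71 and 4.84. The granulocyte-monocyte score was 0.39, 0.45 and 0.02 in 1B, B1-3 and 1A, 1.09 in B1-4 and 2.43 in 2. Both KO MK means therefore mix cells of high and of low megakaryocyte score. The mast cell and basophil score was 0.93 in WT MK (2.42 in B1-1), 0.14 in WT NMK, 0.45 in KO MK and 0.18 in KO NMK cells, and all 4 lymphoid markers were under 1 TPM on average in every group. The part of these markers in the results was not tested. Gene-level Runx1 was 7.6 to 22.2 TPM in WT MK and 8.9 to 47.5 TPM in KO MK cells, and 0 to 15.7 TPM in WT NMK and 0 to 41.5 TPM in KO NMK cells. These values sum over the whole gene and the labels do not say which exons are floxed, so they do not check the deletion. Ddx3y, a gene of the Y chromosome, was at 1 TPM or more in 0 of 6 WT MK and 0 of 9 WT NMK cells, but in 5 of 5 KO MK and 8 of 13 KO NMK cells. Xist, the RNA of the inactive X, was at 1 TPM or more in 6 of 6 WT MK and 8 of 9 WT NMK cells, but in 0 of 5 KO MK and 1 of 13 KO NMK cells. In every difference between KO and WT below, the genotype and the sex of the animals therefore cannot be told apart.

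The 5 start-site windows below are shown because they share with those of Top2a and Mki67 a hexamer known from genes that are switched on late in the cell cycle. They come from the RefSeq promoter table (build GRCm38.p6), which held windows from 250 bases before to 50 bases after the start for 8 of the 10 members and none for Aurkb and Incenp. Each printed stretch has 150 bases before the start and 27 from it, 5′ to 3′ on the gene's strand. Capitals mark TTTGAA, the core of the cell cycle homology region element, and CCAAT, the box bound by NF-Y, on either strand (TTCAAA and ATTGG are their reverse complements).
Ect2: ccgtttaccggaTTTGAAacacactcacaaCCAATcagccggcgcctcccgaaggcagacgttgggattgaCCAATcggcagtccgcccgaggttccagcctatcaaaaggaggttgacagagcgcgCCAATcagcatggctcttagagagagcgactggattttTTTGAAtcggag
Racgap1: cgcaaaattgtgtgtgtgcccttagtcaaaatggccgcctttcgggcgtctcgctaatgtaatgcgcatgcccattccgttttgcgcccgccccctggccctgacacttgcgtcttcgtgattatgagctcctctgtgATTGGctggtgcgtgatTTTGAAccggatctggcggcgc
Kif23: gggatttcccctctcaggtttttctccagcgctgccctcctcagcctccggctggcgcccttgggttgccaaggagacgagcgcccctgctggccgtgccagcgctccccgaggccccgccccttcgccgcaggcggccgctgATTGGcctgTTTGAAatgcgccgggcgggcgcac
Anln: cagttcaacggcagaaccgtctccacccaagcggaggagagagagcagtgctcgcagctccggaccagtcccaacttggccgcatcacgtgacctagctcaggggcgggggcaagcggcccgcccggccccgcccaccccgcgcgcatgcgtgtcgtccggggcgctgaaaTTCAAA
Prc1: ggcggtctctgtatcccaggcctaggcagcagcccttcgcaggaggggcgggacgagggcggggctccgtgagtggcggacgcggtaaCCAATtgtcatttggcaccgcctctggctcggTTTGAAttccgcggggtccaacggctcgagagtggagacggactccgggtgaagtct
The stretches lie at chr3:27153828-27154004 on the minus strand for Ect2, chr15:99651630-99651806 on the minus strand for Racgap1 and chr9:61946773-61946949 on the minus strand for Kif23. Those of Anln and Prc1 lie at chr9:22389180-22389356 on the minus strand and chr7:80294326-80294502 on the plus strand. Over the whole windows, TTTGAA was found in 5 of the 8 members with a window, those printed, and in none of the windows of Arhgef2, Cit and Rhoa. CCAAT was found in a window of 5 of these 8 members. Of all 32851 windows of this length in the table, 17.9% held TTTGAA and 37.4% held CCAAT on either strand, and 6.95% held both. Counted by gene, as the members are, 20.2% of 27025 genes had a window with TTTGAA and 41.1% one with CCAAT. A window with both was found for 7.97% of genes. In Racgap1, Kif23 and Prc1 a CCAAT match stood upstream of TTTGAA within the stretch printed, and Ect2 held 3 CCAAT and 2 TTTGAA matches. A match is a description of the letters and not evidence of a bound factor.

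Ect2, the exchange factor that activates RhoA at the furrow (3:27097222-27153878, minus strand, GRCm38), was listed at 0 TPM in all 6 WT MK cells. A count of 0 of 6 cells still allows a share of up to 50% (3 counts of the 6; the exact interval ends at 45.9%), a limit that covers counting error only and takes the 6 libraries as independent. The same 6 cells had Top2a from 3.3 to 43.7 TPM (median 19.9), Mki67 from 5.6 to 29.4 TPM (median 10.9) and Aurkb from 2.3 to 96.7 TPM (median 46.65). Not all members were present beside them, since Cit was 0 to 0.4 TPM and Kif23 as low as 0.2 TPM in these cells. In KO MK cells Ect2 was 3 TPM in 1B, 0.1 TPM in B1-3, 13.8 TPM in B1-4, 3.3 TPM in 2 and 3.6 TPM in 1A. Hence 4 of 5 KO MK cells reached 1 TPM (80%, with an exact 95% binomial interval of 28.4 to 99.5% that covers counting error only), while B1-3, at the smallest step of the table, could not be told from 0. The mean log2(TPM + 1) of Ect2 was 2.07 higher in KO MK than in WT MK cells (SD between cells 0.89).

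Among NMK cells Ect2 was present or absent rather than uniformly low. In WT NMK cells it was 0 to 11.5 TPM with a median of 0.2, and 4 of the 5 cells in which both Top2a and Mki67 reached 1 TPM had Ect2 at 3.6 TPM or more. In KO NMK cells it was 0 to 46.4 TPM with a median of 0.4. Of the 12 KO NMK cells with both markers, 6 had Ect2 at 1 TPM or more and 6 did not, and 3 of the latter, 3B, 4A and 4B, were listed at 0 although their Top2a was 111.7, 75.7 and 174.7 TPM. An Ect2 of 0 beside high Top2a was therefore found outside WT MK cells too. In WT MK cells the mean log2(TPM + 1) of Ect2 was lower than in WT NMK cells by 1.42 (SD 1.32), while KO MK and KO NMK cells differed by -0.12 (SD 2.24). The difference between WT MK and WT NMK fell inside the SD without WT NMK 1 (-1.21, SD 1.27), 3 (-1.15, SD 1.19), 1A (-1.15, SD 1.20) or 3A (-1.33, SD 1.35). It also did so with the 5 similar WT MK libraries averaged into 1 (-1.42, SD 1.58), and by medians it was -0.26.

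**Figure D1:**
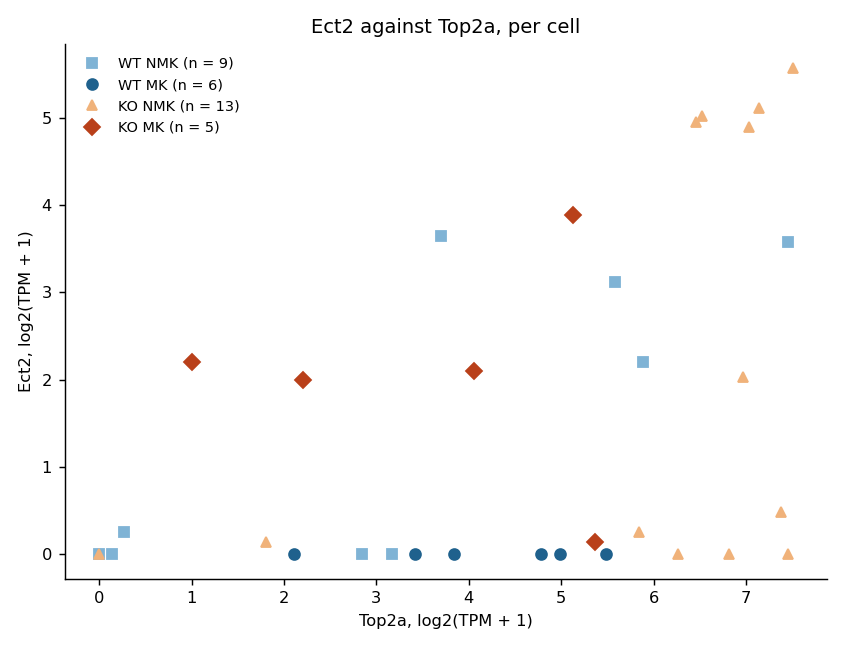
Ect2 (vertical axis) against Top2a (horizontal axis), both as log2(TPM + 1), with 1 point per cell and a symbol per group. The 6 WT MK cells lie on the line of Ect2 = 0 over a range of Top2a from 3.3 to 43.7 TPM, beside several NMK cells, while 4 of the 5 KO MK cells lie at 3 TPM or more of Ect2.

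Ect2 was 0 in the B1 library and in the 5 WT MK libraries without a prefix, and in the latter set the 3 KO MK cells had 3 to 3.6 TPM. The 5 WT MK libraries that the authors set aside had 0 to 0.1 TPM, with housekeeping scores of 3.61 to 5.85. The 4 KO MK libraries set aside had little or no Ect2 as well: 0 TPM in 1, 0.3 TPM in B1-1, 0 TPM in B1-1a and 0 TPM in B1-1b, with housekeeping scores of 9.41, 7.34, 6.03 and 3.85, of which 3 pass the limit of 6. Their Top2a was 0, 1.3, 0.1 and 0.2 TPM, so it reached 1 TPM in B1-1 alone. With all set-aside libraries included, the difference in mean log2(TPM + 1) between KO MK and WT MK was 1.18 (SD 0.94). Without the 2 KO MK cells of low megakaryocyte score, the difference in mean log2(TPM + 1) between KO MK and WT MK was 1.45 (SD 0.61), with KO MK values of 3, 0.1 and 3.6 TPM.

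Arhgef2, the microtubule-bound exchange factor for RhoA, was low in every group (3:88605966-88648052, plus strand). It was 0.8 to 4.1 TPM in WT MK cells (median 2) and 1.8, 2.2, 5.5, 1.4 and 2.7 TPM in KO MK cells 1B, B1-3, B1-4, 2 and 1A. Those ranges overlapped. In NMK cells it reached 2.2 TPM in WT (median 1.4) and 10.4 TPM in KO (median 2.4). The difference in mean log2(TPM + 1) was 0.62 between WT MK and WT NMK (SD 0.63), 0.24 between KO MK and WT MK (SD 0.52) and 0.83 between KO NMK and WT NMK cells (SD 0.96). Without the 2 KO NMK libraries of low housekeeping score the last difference was 1.11 (SD 0.84).

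Rhoa, the GTPase itself, was the most abundant member per length in every group by median TPM except KO NMK, where Aurkb was higher (9:108306129-108337934, plus strand). It was 77.8 to 127.5 TPM in WT MK (median 88.85) and 20.8 to 124.1 TPM in WT NMK cells (median 80.9). KO MK cells had 189.3 TPM in 1B, 143.2 in B1-3, 111.2 in B1-4, 55.5 in 2 and 121.3 in 1A. KO NMK cells had 0 to 188.5 TPM (median 100.1), and the only values under 46.7 TPM were 0.4 and 0 in the 2 libraries of low housekeeping score. Groups overlapped, and the largest difference in mean log2(TPM + 1) was 1.13 between KO MK and KO NMK cells (SD 2.23), which was 0.13 (SD 0.78) without those libraries.

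Racgap1, the GTPase-activating subunit of centralspindlin that binds Ect2 (15:99620496-99651656, minus strand), was detected at 1 TPM or more in all 6 WT MK and all 5 KO MK cells. WT MK values ran from 2.4 to 8 TPM (median 4.95). KO MK values were 1.3, 28, 16.9, 1.3 and 5.9 TPM in 1B, B1-3, B1-4, 2 and 1A, so 2 cells were far above and 2 below the whole WT MK range. In NMK cells it was 0 to 13.6 TPM in WT (median 1.1) and 0 to 45.6 TPM in KO (median 16.8).

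Kif23, the kinesin of centralspindlin (9:61915905-61946774, minus strand), was 0.2 to 4.8 TPM in WT MK cells (median 1.5). KO MK values were 0.9, 14.1, 16.7, 7 and 3.1 TPM in 1B, B1-3, B1-4, 2 and 1A. In all, 3 of these 5 were above every WT MK cell. Kif23 was higher in KO MK than in WT MK by 1.44 in mean log2(TPM + 1) (SD 1.11), and by 0.93 (SD 1.10) without the 2 KO MK cells of low megakaryocyte score, which were B1-4 and 2. It was 0.95 (SD 1.27) with the set-aside libraries included and 0.57 (SD 1.001) without prefixed libraries. Kif23 was 0 to 23.8 TPM in WT NMK (median 0.1) and 0 to 39.1 TPM in KO NMK cells (median 5.2).

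Prc1, the microtubule bundler of the midzone (7:80294450-80316259, plus strand), spanned a wide range among KO MK cells. It was 1.4, 87, 36.2, 10.2 and 0 TPM in 1B, B1-3, B1-4, 2 and 1A. In WT MK cells it was 0.9 to 16.5 TPM (median 6.15). KO NMK cells had 0 to 79.4 TPM (median 45.5) and WT NMK cells 0 to 26.7 TPM (median 0.4), and KO NMK was higher by 2.42 in mean log2(TPM + 1) (SD 2.34). That difference fell inside the SD, at 2.20 to 2.35, when any of 13 of the 22 cells was left out: WT NMK 2, 1B, 2B, 4A or 4B, or KO NMK B1-5, B1-2b, B1-3b, 1A, 1B, 3A, 3B or 4B.

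Aurkb, the kinase of the passenger complex (11:69045647-69051664, plus strand), was the highest of the 8 members other than Rhoa and Arhgef2 by mean TPM in every group. It was 2.3 to 96.7 TPM in WT MK cells (median 46.65), and 35.2, 140.8, 27.3, 27.7 and 0 TPM in KO MK cells 1B, B1-3, B1-4, 2 and 1A. The largest values were those of KO NMK cells, 0 to 514.8 TPM (median 178.3), against 0 to 54.1 TPM (median 18.4) in WT NMK cells. A total of 9 of 13 KO NMK cells had 126.8 TPM or more, above every WT cell. The difference between KO NMK and WT NMK was 3.14 in mean log2(TPM + 1), within an SD of 3.27, and 4.24 (SD 2.65) without the 2 KO NMK libraries of low housekeeping score.

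Incenp, the scaffold of the passenger complex (19:9872296-9899551, minus strand), was at 1 TPM or more in all 11 MK cells. It was 1.4 to 14.1 TPM in WT MK (median 3.2) and 2.7, 13, 5.7, 3.5 and 1.5 TPM in KO MK cells 1B, B1-3, B1-4, 2 and 1A, ranges that overlapped. KO NMK cells had 0 to 38.7 TPM (median 16.9) and WT NMK cells 0 to 6.6 TPM (median 0.2). KO NMK was higher by 2.33 in mean log2(TPM + 1) (SD 1.65).

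Anln encodes anillin, the scaffold that links RhoA, actin, myosin and septins in the ring (9:22332012-22389188, minus strand). It was 0.8 to 11.5 TPM in WT MK cells (median 3.9) and 0 to 8.5 TPM in WT NMK cells, where only 2 of 9 cells reached 1 TPM. WT MK was higher by 1.58 in mean log2(TPM + 1) (SD 1.24). KO MK values were 1.9, 12.2, 0, 2.7 and 0 TPM in 1B, B1-3, B1-4, 2 and 1A. KO NMK cells had 0 to 60.8 TPM (median 7.4) and were higher than WT NMK cells by 2.15 (SD 1.70). That difference was smaller and inside the SD without the libraries with a B1 prefix, and also with the set-aside libraries included. The prefix was on 5 of the 13 KO NMK libraries, while all 9 WT NMK libraries had no prefix.

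Cit, citron kinase of the late midbody (5:115845278-116008947, plus strand), was at or under 0.4 TPM in all 11 MK cells and at or under 0.2 TPM in all 9 WT NMK cells. Of KO NMK cells, 4 of 13 cells reached 1 TPM, the highest at 1.8 TPM in B1-2a, a library of low housekeeping score. With a mean under 1 TPM in every group, Cit was left out of the counts of differences below.

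**Figure D2:**
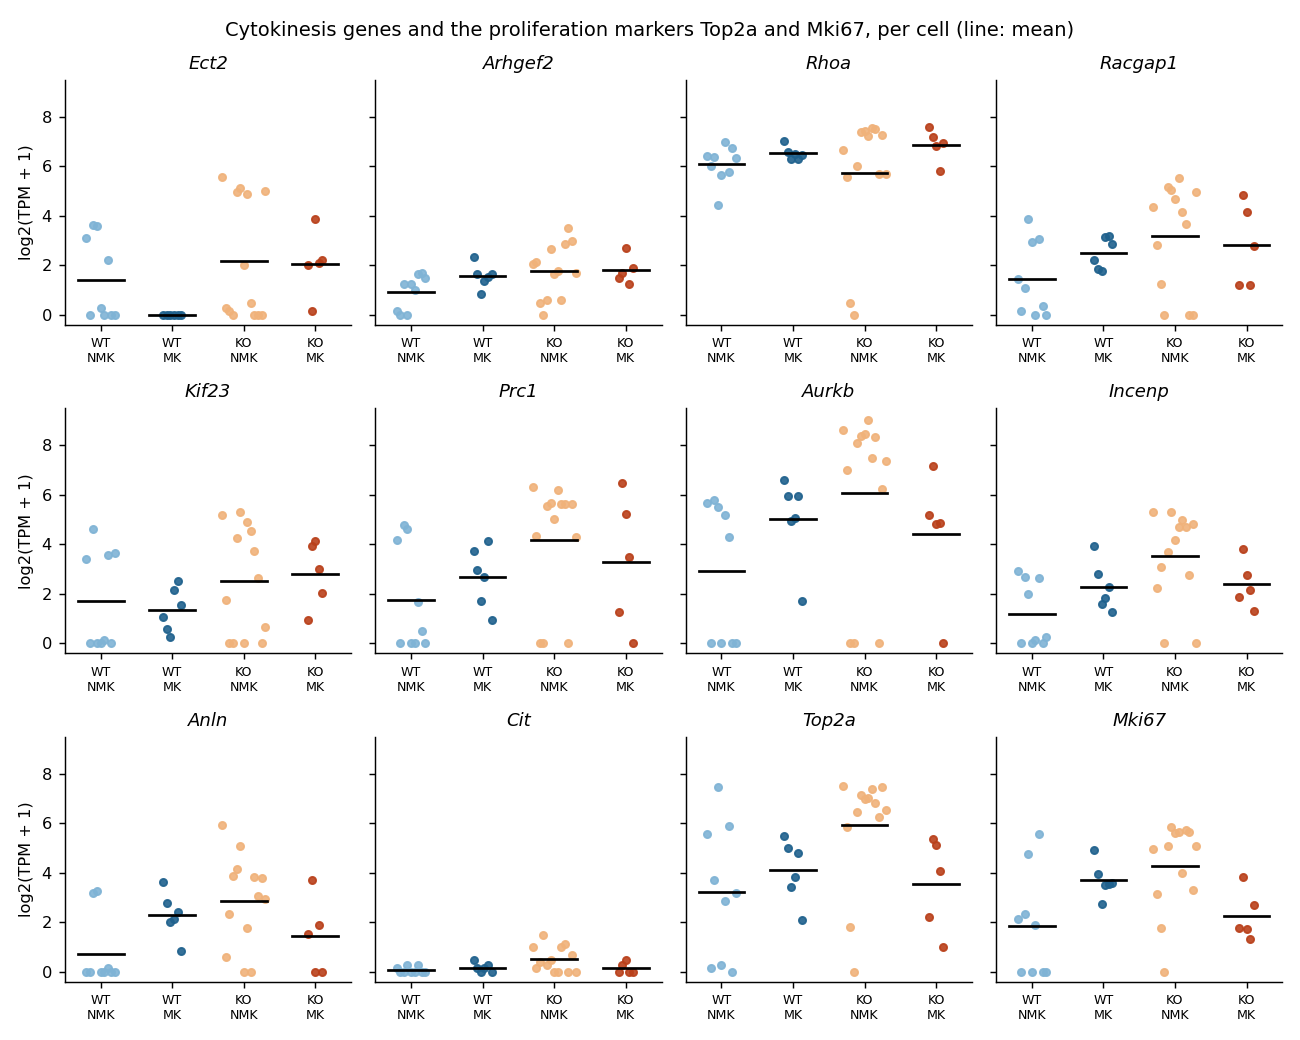
Levels of each member, and of Top2a and Mki67, as log2(TPM + 1) in each of the 33 cells, with 1 point per cell in 4 groups and a line at the mean. Ect2 is at 0 in the 6 WT MK cells, and Aurkb, Prc1 and Incenp have their highest means in KO NMK cells, although the highest Prc1 value (87 TPM) is that of a KO MK cell.

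A difference was counted as a call where it was at least 1 in mean log2(TPM + 1) and larger than the SD between cells, over genes that averaged at least 1 TPM in 1 of the groups being compared. Between WT MK and WT NMK cells 1 of the 9 members tested was higher (Anln) and 1 lower (Ect2, a call lost without any 1 of 4 WT NMK cells, as given above), where 25.6% of all genes were called higher and 3.33% lower. The share of members called higher was below that of all genes. None of the 9 was without overlap between the groups, where 4.58% of all genes were wholly above and 0.528% wholly below. Between KO MK and KO NMK cells 0 of 9 members were called in either direction, where 13.3% of all genes were called higher and 0.614% lower, while Top2a and Mki67 were lower by 2.39 (SD 2.22) and 2.02 (SD 1.64), with Top2a inside the SD without KO MK 1A (-1.75) or 1B (-2.05). Without the 2 KO NMK libraries of low housekeeping score, Aurkb was lower by 2.78 (SD 2.55) and Incenp by 1.49 (SD 1.47), where 3.35% of all genes were called lower and 12.7% higher. Without the 2 KO MK cells of low megakaryocyte score 0 members were called, where 18.3% of all genes were called higher and 1.42% lower. All 9 members overlapped between the groups, where 0.299% of all genes were wholly above and 0.015% wholly below.

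Between KO MK and WT MK cells 2 of 9 members, Ect2 and Kif23, were called higher and 0 lower, where 9.74% of all genes were called higher and 7.07% lower. Of the 9, 1 (Ect2) had no overlap between the groups, by the 0.1 TPM of KO MK B1-3 against 0, as did 2.38% of all genes with KO MK above WT MK and 1.85% with KO MK below. Without the 2 KO MK cells of low megakaryocyte score the count higher was 1 (Ect2), where 15.4% of all genes were called higher and 8.29% lower. With all libraries Mki67 was lower in KO MK cells by 1.44 (SD 0.86), and without those 2 cells it differed by -0.94 (SD 0.82).

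Between KO NMK and WT NMK cells 3 of 9 members, Prc1, Incenp and Anln, were called higher and 0 lower, where 2.52% of all genes were called higher and 2.19% lower. As given above, the Prc1 call was lost without any 1 of 13 cells. The Anln call was lost without prefixed libraries and with the set-aside ones included. Without the 2 KO NMK libraries of low housekeeping score 6 of 9 were called higher, adding Arhgef2, Racgap1 and Aurkb, where 10.2% of all genes were called higher and 2.06% lower. All 9 overlapped between the groups with all libraries, where 0% of all genes were wholly above and 0.0545% wholly below. Top2a and Mki67 were higher in the same cells by 2.71 (SD 2.49) and 2.44 (SD 1.94) with all libraries, where the Top2a difference was inside the SD without WT NMK 2, 1B or 4A (2.31 to 2.34), and the median of 29 other mitosis genes was higher by 1.69 against 0.20 over all genes. The part of cycling cells among those picked in the difference was not tested.

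**Figure D3:**
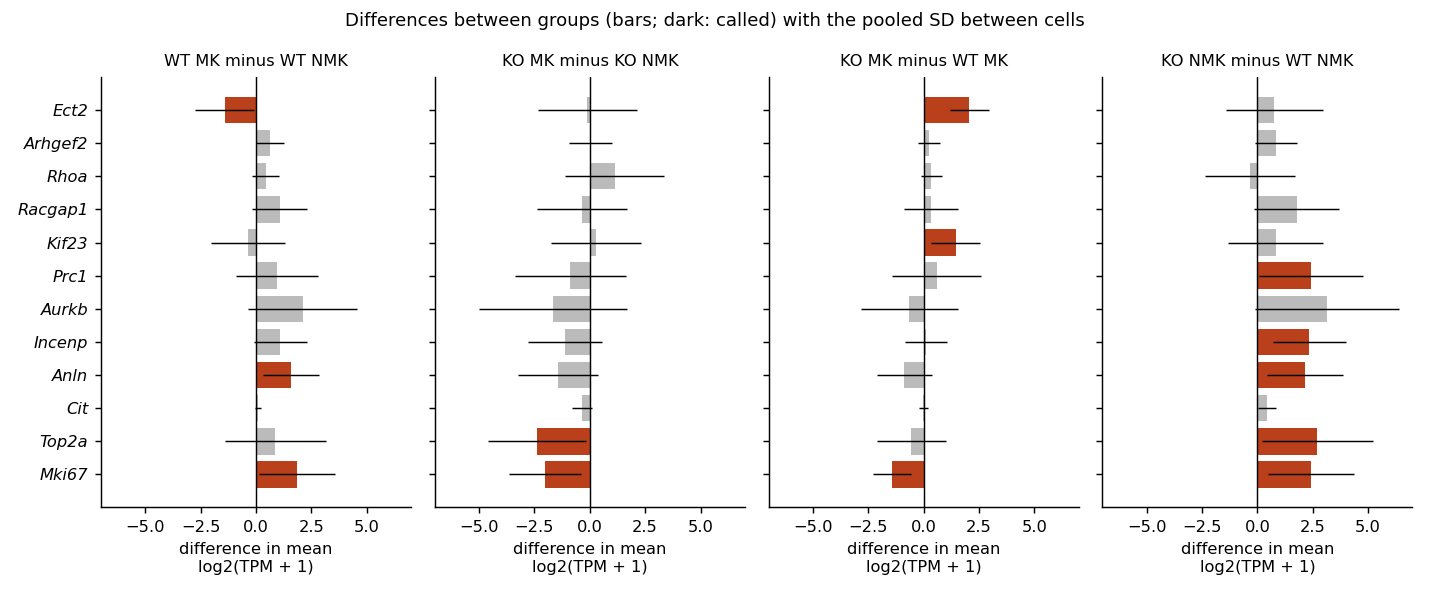
Difference in mean log2(TPM + 1) of each member, Top2a and Mki67 in the 4 comparisons, with the pooled SD between cells as bars. Ect2 is the member furthest below 0 in WT MK against WT NMK (-1.42) and furthest above 0 in KO MK against WT MK (2.07), and most bars cross 0.

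Each member was also set against Top2a and Mki67 of the same cell. The cytokinesis score, the mean log2(TPM + 1) of the 8 members other than Rhoa and Arhgef2, was 2.04 in WT MK and 2.42 in KO MK cells, a difference of 0.38 (SD 0.86). The mean log2(TPM + 1) of Top2a and Mki67 was 3.91 in WT MK and 2.91 in KO MK cells. The score minus that mean was -2.49 to -1.52 in WT MK cells and -0.81, -0.24, -0.35, -0.81 and -0.23 in KO MK cells B1-3, B1-4, 2, 1A and 1B. The groups did not overlap, and the difference was 1.37 (SD 0.38).

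This difference was shared by many genes outside cytokinesis. With Top2a and Mki67 subtracted, 7 of 9 members were called higher in KO MK than in WT MK cells, as were 44.7% of all genes, and 0 were called lower, as were 0.602%. With the mean of the 29 mitosis genes as the reference in place of Top2a and Mki67, the difference was 0.32 (SD 0.60), and the mitosis genes themselves differed by 0.05 (SD 1.06). The mean of Top2a and Mki67 itself differed by -0.996 between KO MK and WT MK cells (SD 1.01). Since the relative score is the score minus this mean, the 1.37 is the sum of 0.38 from the members and 0.996 from the lower reference. Subtraction brought Anln from -0.88 to 0.12 and Aurkb from -0.64 to 0.35, so these members differed less than before.

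Within WT cells the relative score did not separate MK from NMK. It was -1.86 in WT MK and -1.89 in the 5 WT NMK cells with both markers, a difference of 0.03 (SD 1.07), and 1 of 9 members was called lower, where 21.8% of all genes were called higher and 1.42% lower. That member was Ect2, whose relative value in WT MK cells is only minus the Top2a and Mki67 level, since its own is 0. In KO cells it was -0.49 in MK and -2.20 in NMK cells, a difference of 1.71 (SD 0.98), but 91.9% of all genes were called higher by the same subtraction and 0.00816% lower, against 5 and 0 of 9 members. With mitosis genes as the reference the difference in KO cells was -0.70 (SD 0.80), the opposite sign. Between KO NMK and WT NMK cells the relative score differed by -0.31 (SD 1.24), and by 0.22 without WT NMK 3. No member was called in that comparison, where 0.18% of all genes were called higher and 23.8% lower.

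**Figure D4:**
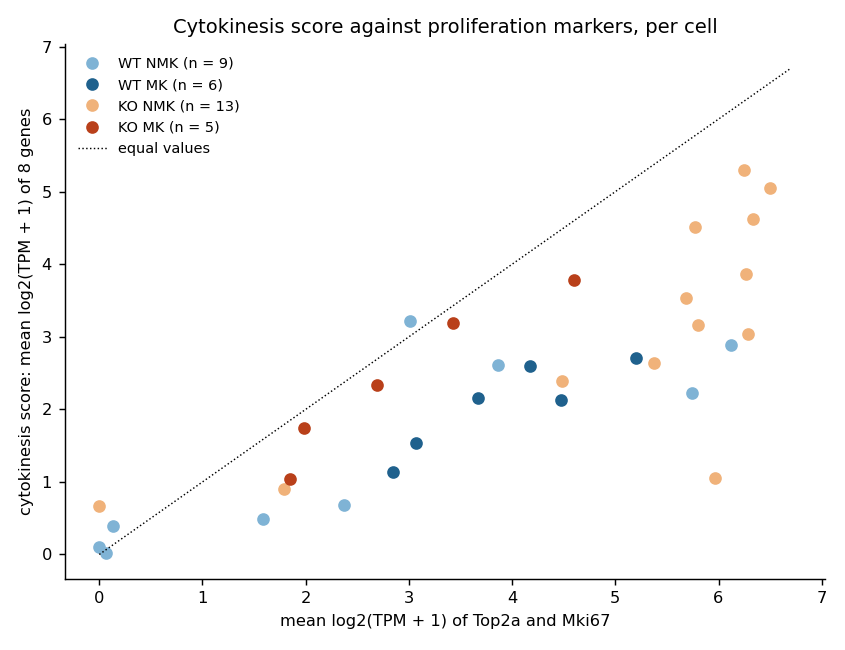
Cytokinesis score (vertical axis, mean log2(TPM + 1) of 8 members) against the mean log2(TPM + 1) of Top2a and Mki67 (horizontal axis), with 1 point per cell and a dotted line of equal values. KO MK cells lie 0.23 to 0.81 below the line and WT MK cells 1.52 to 2.49 below it, and KO NMK cells reach the highest values on both axes.

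Across the 33 cells, which share their reference genes and differ in library quality, the score followed Top2a and Mki67 with r = 0.81. The members ranged from Aurkb (r = 0.79), Incenp (0.77) and Prc1 (0.76) through Racgap1 (0.64) to Kif23 (0.46), Anln (0.46), Ect2 (0.45), Arhgef2 (0.42), Rhoa (0.37) and Cit (0.20). Without the 2 libraries of low housekeeping score Rhoa had r = 0.10 and Cit 0.52 over 31 cells. The passenger complex and Prc1 had the highest correlations with the proliferation markers with and without those libraries. Of 7016 genes, those whose levels were most like the score over the 33 cells were Kif22 (r = 0.90), Nusap1 (0.87), Tacc3 (0.86), Ncaph (0.86), Sgol1 (0.84), Ncapd2 (0.83), Tmem55b (0.82) and Rhno1 (0.82).

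Other genes of cytokinesis were taken from a list of 44. Of these, 38 were tested between WT MK and WT NMK cells, and 14 were called higher and 2 lower, where 25.6% of all genes were called higher and 3.33% lower, with a median difference of 0.88 against 0.70 over all genes. Among them were the passenger complex subunits Birc5 (survivin, 212.2 TPM in WT MK and 113.4 in WT NMK, difference in mean log2(TPM + 1) 4.17, SD 3.27) and Cdca8 (borealin, 247.1 and 128.4 TPM, difference 3.23, SD 2.95). Vps4a, an ATPase of the membrane cut that ends cytokinesis, was higher by 3.38 (SD 1.96). With the set-aside libraries included, Birc5, Cdca8 and Vps4a differed by 2.09 (SD 3.69), 0.42 (SD 3.77) and 1.36 (SD 2.55), inside the SD. Cdca8 was also inside it without WT NMK 2 or 1B (2.65, SD 2.72). The same held for Cdca8 with the 5 similar WT MK libraries averaged into 1 (3.33, SD 3.53). By the ratio of mean TPM, Birc5 and Cdca8 differed by 0.90 and 0.94. Chmp4b, a subunit of the ESCRT filament that makes the cut, differed by 2.47 (SD 2.50). By role, 4 of 5 midzone and passenger genes, 1 of 4 RhoA regulators, 6 of 15 contractile ring genes and 3 of 14 abscission genes were called higher, and the 2 called lower were ring genes. These groups are small, and the RhoA regulators and abscission genes lay near or below the share of all genes.

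Between KO MK and KO NMK cells 4 of 38 were higher and 0 lower (median difference 1.01, all genes 0.59), where 13.3% of all genes were called higher and 0.614% lower. The 4 were Mylk (1.70, SD 1.40), Diaph1 (1.58, SD 1.36), Sept11 (1.13, SD 1.07) and Spast (1.163, SD 1.162). Spast passed the limit only at the last digit shown, at means of 3.72 TPM in KO MK and 1.75 TPM in KO NMK cells. Myl12a, a myosin light chain, differed by 2.27 (SD 2.64), within the SD and so not called. The same held for the ESCRT genes Chmp2b, Chmp3 and Vps4b, at 3.0 (SD 3.01), 1.74 (SD 1.98) and 1.77 (SD 2.93). The values and counts between KO MK and KO NMK cells include the 2 KO NMK libraries of low housekeeping score. The list was not counted again without them. Between KO MK and WT MK cells 2 of 38 were higher and 0 lower (median 0.30, all genes 0.09), where 9.74% of all genes were called higher and 7.07% lower. The 2 were Vps4b (1.07, SD 0.60) and the abscission gene Cep55 (1.35, SD 1.13). Tsg101 and Chmp3 of the ESCRT machinery differed by 0.88 (SD 0.20) and 0.79 (SD 0.39), and Chmp4b by -0.81 (SD 0.70). These were under 1 in size and so not called.

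Between KO NMK and WT NMK cells 2 of 37 were higher and 0 lower (median 0.40, all genes 0.20), where 2.52% of all genes were called higher and 2.19% lower. The 2 were Kif4, a midzone kinesin (2.20, SD 1.66), and the contractile ring gene Rock1 (1.89, SD 1.85). Birc5, Cdca8 and Vps4a differed by 3.38 (SD 3.48), 2.79 (SD 3.28) and 2.42 (SD 2.95), within the SD and so not called. These values and counts include the 2 KO NMK libraries of low housekeeping score, which widen the SD. Without them 10.2% of all genes were called higher and 2.06% lower, and the list was not counted again. Myh10, the non-muscle myosin IIB heavy chain that RUNX1 is known to repress in megakaryocytes, was at most 0.5 TPM in WT MK, 0.1 TPM in KO MK, 0.1 TPM in WT NMK and 6.5 TPM in KO NMK cells. At these levels no difference in Myh10 between MK groups could be read.

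The 29 mitosis genes outside cytokinesis give the scale for the members. A count of 6 was called higher and 0 lower between WT MK and WT NMK cells (median 1.66), 0 and 0 between KO MK and KO NMK cells (median -0.11), 1 and 0 between KO MK and WT MK cells (median 0.04), and 4 and 0 between KO NMK and WT NMK cells (median 1.69). The shares of all genes called higher in these comparisons were 25.6%, 13.3%, 9.74% and 2.52%, so the 6 of 29 in WT cells lay below the share of all genes. The medians of the 9 members tested in the same comparisons were 0.95, -0.36, 0.33 and 1.77. By mean score the sign differed between KO MK and KO NMK cells with all libraries. The cytokinesis score differed by -0.71 (SD 1.46) and the mitosis score by 0.18 (SD 1.99), both within the spread between cells. The KO NMK libraries of low housekeeping score, B1-1b and B1-2a, had mitosis scores of 1.34 and 0.25. Every other KO NMK cell had 3.33 or more, so the positive sign of the mitosis difference rested on these 2 libraries. Without them the cytokinesis score differed by -1.14 (SD 1.23).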

How the data were processed

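Single-cell SMART-Seq libraries of CD41-positive bone marrow stem cells were studied after culture, in 4 groups by labelled genotype and picked cell type. The authors deposited 2 tables of TPM with 1 decimal, of 46 libraries and, without outliers, of 33, and the latter was used. The submitters' processing notes name featureCounts 1.6.2, STAR 2.6.1e, cutadapt 1.9.1 and FastQC 0.11.7 as tools and mm10 as the build. How TPM was computed, from which annotation, and how outliers were chosen is not given in the sources used here. Of 90 labelled samples, 44 are not analysed here, and 1 column matched no sample and was not used.

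Levels were compared as log2(TPM + 1), which understates changes of low genes, beside the pooled SD between cells. Tests between groups were not run, since each group is 1 sample. A call needs a difference of 1 or more that exceeds the SD, and an average of at least 1 TPM in either group. Shares of cells have exact (Clopper-Pearson) 95% intervals. Relative values use cells with Top2a and Mki67 both at 1 TPM or more. The named genes were the members, Top2a, Mki67, Myh10 and the 8 genes most like the score. Those 8 came from genes with 5 TPM or more on average and 1 TPM or more in 25% of cells. In each comparison up to 4 other cytokinesis genes with the largest difference at 10 TPM or more were named. Further cytokinesis genes that were called were named too, except between WT MK and WT NMK cells. Ddx3y and Xist were named after their values were seen. The members and lists were chosen with earlier results of these data known. Alternatives covered pseudocount, filters, normalization, summary, reference, library sets and leaving out each cell. The scripts, in Python 3.11.15 with pandas 2.3.3 and numpy 2.4.6, were tested on simulated data. Gene positions are from GENCODE M21 and promoter windows from RefSeq.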

Additional observations from a re-analysis of the deposited data

Results flagged for a closer look

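Aurkb was 2.3 TPM in WT MK 1B, where the other 5 WT MK cells had 29.9 to 96.7 TPM. The gap passed the limit set for a group of 6 cells taken as independent. It was the only such value in 41 groups of cells examined. Since chance gives about 1 in 20 groups, this single flag is no more than chance gives. WT MK 1B also had the lowest Top2a (3.3 TPM), Prc1 (0.9 TPM), Anln (0.8 TPM) and Incenp (1.4 TPM) of its group. Its Mki67, Racgap1, Kif23, Rhoa and Arhgef2 were not the lowest.

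The KO NMK library B1-1a, which the authors left out as an outlier, had a cytokinesis score of 3.958, above the highest WT NMK cell (3.22), with Ect2 at 17.4 TPM, Top2a at 104.9 TPM and a housekeeping score of 10.3.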

How the results depend on the processing

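No paired analysis was possible because the results come from no test and each group is 1 sample. The number of members called between WT MK and WT NMK cells was 2, but 0 with a pseudocount of 10 or a minimum mean of 10 TPM, 1 by the ratio of mean TPM and 4 by medians, and leaving out each cell gave 2 to 4, with 4 without WT MK 1B. Between KO MK and KO NMK it was 0, but 1 by medians, 3 without prefixed libraries and 2 without the libraries of low housekeeping score, and leaving out each cell gave 0 to 1, with 1 without KO NMK 1A or 3A or KO MK B1-3. Between KO MK and WT MK it was 2, but 1 in the full table, 1 without prefixed libraries, 1 without the 2 KO MK cells of low megakaryocyte score (added after seeing the data), and 0 with a pseudocount of 10 or a minimum mean of 10 TPM; leaving out each cell gave 2 to 3, with 3 without KO MK B1-3. Between KO NMK and WT NMK it was 3, but 1 in the full table, 5 by medians, 5 without mitochondrial and ribosomal protein genes and 6 without the libraries of low housekeeping score. Leaving out each cell gave 2 to 5, with 5 without WT NMK 1A or without KO NMK B1-1b, B1-2a or 4A. The relative score of KO MK against WT MK was 1.37, but 0.62 with a pseudocount of 10, 0.32 with mitosis genes as the reference, and, both added after seeing the data, 0.93 with Top2a alone and 1.82 with Mki67 alone. That of KO MK against KO NMK was 1.71, but -0.70 with mitosis genes as the reference. The other 127 values of the scores and counts under these alternatives, and 190 under leaving out a cell, moved by less than the SD between cells or, for counts, only slightly. Beyond what each alternative's construction shows, the cause was not tested. With TPM only, the depth behind a 0 is unknown.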
